A study of Mus musculus with 2 samples.

Results

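The 6 mouse Dlx genes, Dlx1 to Dlx6, were examined in DNase-seq libraries of frontal cortex, out of 21938 protein-coding genes in the GENCODE M21 annotation of the mm10 genome. They were chosen by name, and their positions were taken from that annotation. Each gene's window was its body with 10 kb to each side, and the windows of a neighbouring pair were joined across the stretch between the genes. This gave 3 windows, of 38.6 kb for Dlx1 and Dlx2, 38.8 kb for Dlx5 and Dlx6, and 46.1 kb for Dlx3 and Dlx4.

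DNase-seq cuts nuclei with DNase I, so that DNA in open chromatin is cut more often. A peak marks a stretch with many cuts, and a footprint marks a short gap in the cuts inside an open stretch, such as a bound protein can leave. There was 1 group, whole frontal cortex of female B6CASTF1/J mice aged 36 days, an F1 hybrid strain, untreated as far as the labels say. It had 2 replicates, each from its own tissue record, and both records carry the same donor label. The spread between them may therefore be technical, and with 1 group there was no contrast to test. In bulk tissue, strong opening in few cells and weak opening in many cells cannot be told apart.

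DLX proteins are homeodomain transcription factors. The genes lie in pairs that are transcribed toward each other, and conserved enhancers between the genes of a pair drive shared expression in the embryonic forebrain. Dlx1, Dlx2, Dlx5 and Dlx6 direct the birth, migration and maturation of GABA-releasing interneurons and stay active in a minority of adult cortical neurons. Dlx3 and Dlx4 are known mainly from epithelium, skeleton, teeth and placenta.

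Each library came with 2 peak lists. The shorter lists held 29700 peaks in replicate 1 and 66512 in replicate 2, the longer lists held 56015 and 117579, and the footprint lists held 112826 and 250543. Peak signal was the authors' read-depth normalized value, with a median of 1.34 in replicate 1 and 1.17 in replicate 2 in the shorter lists. All signals of a library were whole multiples of a smallest step, within 0.05 of a step, and the step was 1.21 times larger in replicate 1. The total read number was not given in the sources used here. Of 14 genes of cortical excitatory neurons, the main cells of the tissue, 6 had a promoter peak in replicate 1 and 12 in replicate 2, against 51.0% and 60.0% of all protein-coding genes, so that replicate 1 gave no check of the tissue. A peak within 500 bp of any annotated start of a gene was counted as a promoter peak throughout.

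Of the interneuron genes of the family, Dlx2 and Dlx5 were marked as open in replicate 2 and not in replicate 1, while Dlx3, an epithelial gene, had peaks near it in both. With the replicate 2 list cut down to the length of the replicate 1 list by signal, Dlx2 and Dlx5 had 0 peaks in both replicates. Replicate 1 had no peak in the window of Dlx1 and Dlx2 or in that of Dlx5 and Dlx6. Replicate 2 had 7 peaks in the first and 14 in the second. The window of Dlx3 and Dlx4 had 2 peaks in each replicate, and these 2 were the same places. In sum, replicate 1 had 2 peaks over the 3 windows and replicate 2 had 23, or 21 after rows of the list that overlapped each other were joined.

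**Figure D1:**
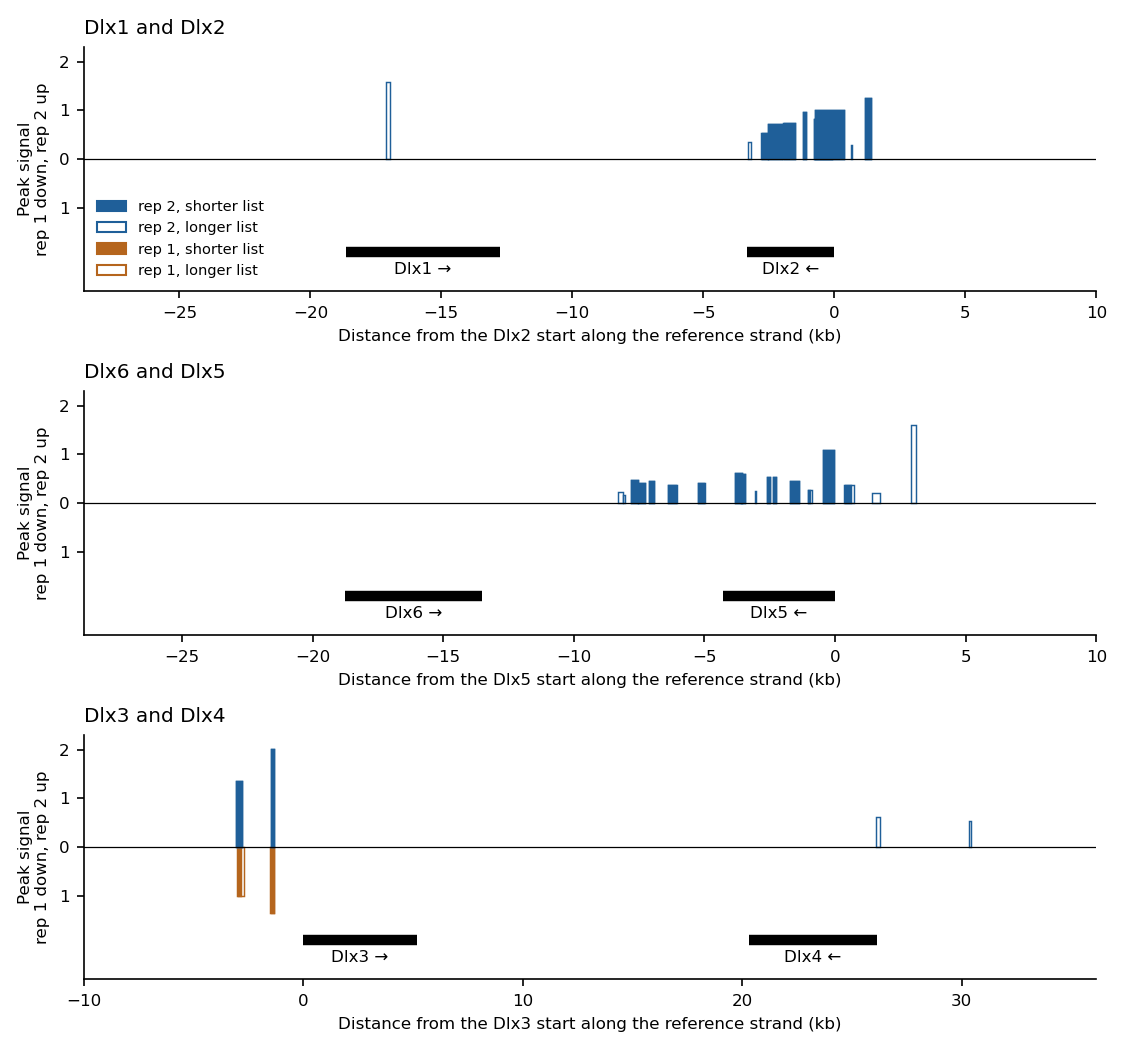
Peak signal (read-depth normalized, y axis) along the 3 gene pairs, against the distance in kb from the start of Dlx2, Dlx5 or Dlx3; replicate 2 points up and replicate 1 down, filled bars are the shorter peak lists, outlined bars the longer ones, and black bars the gene bodies with arrows for the direction of transcription. Replicate 1 bars appear only upstream of Dlx3, with signals of 1.00 and 1.35, while replicate 2 bars cover 61.4% of the body of Dlx2 and 36.2% of that of Dlx5.

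Counted gene by gene, Dlx5 had 14 peaks in its window in replicate 2 and Dlx2 and Dlx6 had 7 each. Dlx3 had 2, and Dlx1 and Dlx4 had 0. In replicate 1 the order was different, with 2 peaks for Dlx3 and 0 for each of the other five. All 7 peaks counted for Dlx6 also lay in the window of Dlx5. Among all protein-coding genes, 67.6% had at least 1 peak in the window in replicate 1 and 78.1% in replicate 2. A window with none in replicate 1 and at least 1 in replicate 2, the state of Dlx2, Dlx5 and Dlx6, was held by 10.6% of genes. With these 7 peaks counted for both Dlx5 and Dlx6, the median Dlx gene had 0 peaks in replicate 1 and 4.5 in replicate 2. The median protein-coding gene, also counted window by window, had 1 and 2. The Dlx median in replicate 2 thus depends on peaks that were counted for 2 genes.

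**Figure D2:**
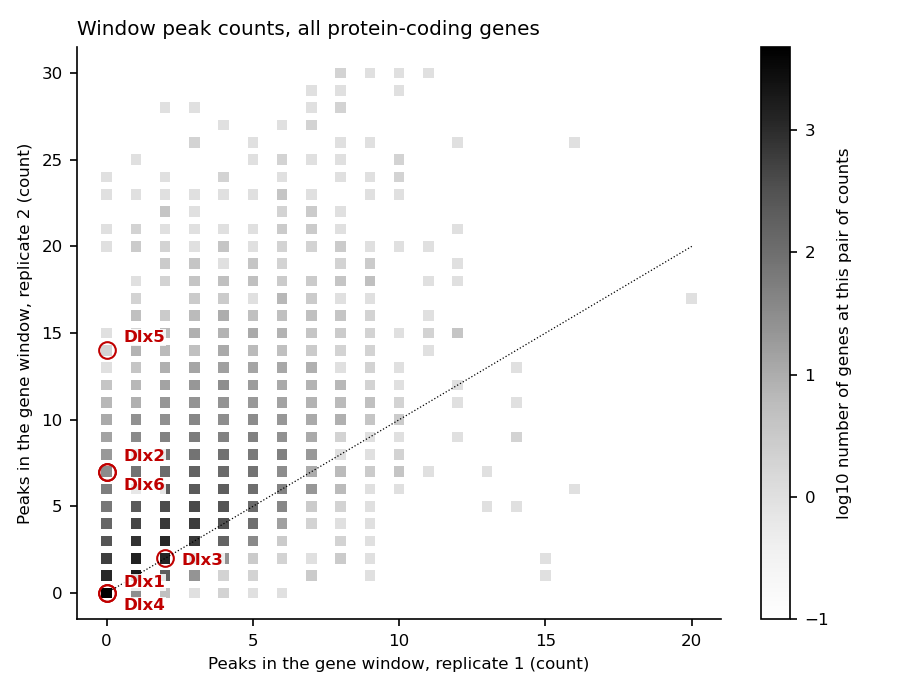
Number of peaks in the gene window in replicate 1 (x axis) and replicate 2 (y axis) for protein-coding genes, shaded by the log10 number of genes at each pair of counts, with the 6 Dlx genes ringed and a dotted line at equal counts; axes end at 20 and 30 peaks and 23 genes lie beyond them. Dlx5, with 0 and 14 peaks, sits on the left edge well above most genes that have none in replicate 1.

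Dlx2 and Dlx1 lie on chromosome 2. Dlx2 (ENSMUSG00000023391.8, chr2:71543408-71546754, minus strand) acts early in the ganglionic eminences, and its gene was open along most of its length in replicate 2. It held 6 peaks in its body, with widths of 100 to 1120 bp and signals of 0.534 to 1.01. The peak over the start, chr2:71546021-71547140, was the widest, with a signal of 1.01 and 17 footprints. These peaks covered 61.4% of the gene body in replicate 2 and 0% in replicate 1. Only 21 protein-coding genes, or 0.0957%, had a body covered to at least that share in replicate 2, Dlx2 included. Genes of all lengths were compared, here and in the later ranks over all genes. Dlx2 is short, at 3.35 kb, and a single peak takes up a larger share of a short gene.

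The sequence just before the Dlx2 start is shown because 3 of the footprints of replicate 2 fell in it. It is given 5′ to 3′ on the minus strand (chr2:71546755-71547004), with the footprints in capitals.
Dlx2, 250 bases before the start: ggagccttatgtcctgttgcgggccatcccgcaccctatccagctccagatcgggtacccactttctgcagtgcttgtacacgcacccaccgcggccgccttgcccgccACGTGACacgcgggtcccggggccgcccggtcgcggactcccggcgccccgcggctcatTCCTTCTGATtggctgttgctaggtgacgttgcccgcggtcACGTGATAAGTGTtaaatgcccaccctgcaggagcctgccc
In this stretch 2 of the 3 footprints, at chr2:71546889-71546895 and chr2:71546783-71546795, lie over all but the first base of the letters CACGTG, which read the same on both strands. This motif was chosen after the sequences were seen. The 250 bases before the gene start held it at least once in 6.53% of protein-coding genes and at least 2 times, as for Dlx2, in 0.538%. No other Dlx gene had it there. Among footprints of the Dlx windows in replicate 2, read with 3 bp to each side, it occurred in 3 of 71, against 0.749% of all footprints of that library. The third was in an intron of Dlx5, at chr6:6878750-6878756. A match of letters is a description and does not show which protein was bound.

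The remaining peak of the window, chr2:71547941-71548140, lay 1.29 kb upstream of Dlx2 and had the highest signal of the 7, at 1.26, and the lowest false discovery rate (FDR) in the window, 1.80e-14. This rate is the authors' value for the local rate of cuts, listed position by position, and the lowest value within a peak is given throughout. The peak is shown because it held 3 footprints, the widest of which spelled a CTCF core. CTCF is a zinc-finger protein that anchors chromatin loops. The sequence is on the plus strand, with footprints in capitals.
Peak upstream of Dlx2: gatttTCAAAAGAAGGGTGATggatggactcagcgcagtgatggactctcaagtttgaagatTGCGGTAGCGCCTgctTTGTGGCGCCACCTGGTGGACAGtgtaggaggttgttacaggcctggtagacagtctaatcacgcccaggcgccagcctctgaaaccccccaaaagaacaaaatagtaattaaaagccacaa
The footprint at chr2:71548019-71548041 was 23 bp wide, and only 7.85% of all footprints of replicate 2 were at least as wide. Near its 3′ end the peak also held the homeodomain core TAATTA, outside the footprints.

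Dlx1 (ENSMUSG00000041911.3, chr2:71528113-71533981, plus strand) works with Dlx2 in interneuron migration and survival. It had no peak in its body in the shorter list of either replicate. The longer list of replicate 2 held 1 peak at an annotated start inside the gene, chr2:71529629-71529810, with 2 footprints. Its signal of 1.59 was higher than that of all 7 peaks in the shorter list, but its lowest FDR was 0.00414, against 3.17e-05 for the weakest of the 7. The 9.43 kb between Dlx1 and Dlx2 held no peak in either list of either replicate. The antisense transcript Dlx1as, which starts there, had no promoter peak in any list. Outside the genes, replicate 1 had its nearest peak of the shorter list 74.6 kb to the left of the pair and 52.0 kb to its right. For the longer list of replicate 1 these distances were 74.6 and 34.3 kb.

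Dlx5 (ENSMUSG00000029755.10, chr6:6877805-6882085, minus strand) acts downstream of Dlx1 and Dlx2 and, with Dlx6, shapes parvalbumin interneurons. In replicate 2 it carried 8 of the 14 peaks of its window in its body, with signals of 0.243 to 1.10. The peak nearest its start, chr6:6881621-6882060, ended 25 bp inside the gene and had a signal of 1.10, the highest of the 14 peaks, and 5 footprints, and its FDR of 2.32e-28 was the lowest in the 3 windows. The weakest, chr6:6879018-6879069, was 52 bp wide with a signal of 0.243, and it was missing from the longer list. Peaks covered 36.2% of the Dlx5 body, a share that 96 protein-coding genes, or 0.438%, reached. Per length of window Dlx5 had 5.77 peaks per 10 kb in replicate 2, a density reached by 18 genes, or 0.0820%.

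The annotated start itself lay in a gap of 395 bp between that peak and the next, chr6:6882456-6882680, at a signal of 0.369. The bases just before the start are shown because part of this gap is a simple repeat. They are on the minus strand (chr6:6882086-6882335), with the only footprint in capitals.
Dlx5, 250 bases before the start: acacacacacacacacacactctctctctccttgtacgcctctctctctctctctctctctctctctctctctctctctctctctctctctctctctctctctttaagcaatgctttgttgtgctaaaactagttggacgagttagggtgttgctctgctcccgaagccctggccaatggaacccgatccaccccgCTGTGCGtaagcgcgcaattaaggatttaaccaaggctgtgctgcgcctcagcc
It includes an unbroken run of 32 CT units, 64 bp long. Whether reads could be placed in this run was not tested.

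The 9.24 kb between Dlx5 and Dlx6, known for conserved forebrain enhancers, held 5 peaks in replicate 2 and none in replicate 1. All 5 lay on the Dlx5 side of the stretch, from 5.13 to 7.67 kb downstream of its start, and their signals were alike, at 0.379, 0.417, 0.417, 0.466 and 0.485. The peak with the most footprints of the 5 is shown, on the plus strand (chr6:6874281-6874540), with its 4 footprints in capitals.
Peak between Dlx5 and Dlx6: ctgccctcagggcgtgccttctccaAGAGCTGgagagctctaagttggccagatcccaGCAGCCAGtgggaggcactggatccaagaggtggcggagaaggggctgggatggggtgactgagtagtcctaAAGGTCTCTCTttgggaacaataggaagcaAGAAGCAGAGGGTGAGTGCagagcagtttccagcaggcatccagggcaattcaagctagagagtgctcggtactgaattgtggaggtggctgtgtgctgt
It held a CTCF core outside its footprints and no TAATTA. Its FDR was 5.88e-11, the lowest of the 5.

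Dlx6 (ENSMUSG00000029754.13, chr6:6863334-6868568, plus strand), the partner of Dlx5, had no peak and no listed position in its body or at its starts in either replicate or list. The antisense transcript Dlx6os1, also called Evf2, and the unclassified transcripts Dlx6os2 and Gm44094 also lacked promoter peaks in all lists. In the longer list of replicate 2, a further peak 3.01 kb upstream of Dlx5, chr6:6885002-6885179, had a signal of 1.61, above all 14 of the shorter list. Its lowest FDR was 0.0119, and it held 3 footprints. As at Dlx1, a high signal thus went with a weak FDR. In replicate 1 the nearest peak of the shorter list was 284.6 kb to the left of the pair and 73.7 kb to its right. For the longer list of replicate 1 these distances were 46.3 and 60.9 kb.

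Dlx3 (ENSMUSG00000001510.8, chr11:95120119-95125296, plus strand), a regulator of hair, skin and bone, had 2 intergenic peaks upstream that appeared in both replicates. The nearer peak had its centre 1.42 kb upstream of the start in replicate 1 and 1.41 kb in replicate 2, with signals of 1.35 and 2.02. The farther one lay 2.91 and 2.94 kb upstream, with signals of 1.00 and 1.36. Replicate 2 was thus higher at both, by 0.58 and 0.44 on the log2 scale. Over all 27469 replicate 1 peaks that had a partner, each set against its strongest partner, the median log2 ratio was 0.69, with quartiles of 0.46 and 0.91, so that 1 of the 2 fell within the quartiles and the other just below them. Neither Dlx3 itself, nor the 15.15 kb between it and Dlx4, held a peak.

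Both peaks are shown because they carry the only footprints of the 3 windows that were found in both replicates. They are on the plus strand, with the footprints of replicate 2 in capitals (chr11:95117068-95117300 and chr11:95118621-95118800).
Farther peak upstream of Dlx3: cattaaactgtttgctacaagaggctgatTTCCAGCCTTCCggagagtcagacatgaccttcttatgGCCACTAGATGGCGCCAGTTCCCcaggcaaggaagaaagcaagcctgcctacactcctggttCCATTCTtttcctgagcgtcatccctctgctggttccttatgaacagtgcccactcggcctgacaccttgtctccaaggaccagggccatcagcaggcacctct
Nearer peak upstream of Dlx3: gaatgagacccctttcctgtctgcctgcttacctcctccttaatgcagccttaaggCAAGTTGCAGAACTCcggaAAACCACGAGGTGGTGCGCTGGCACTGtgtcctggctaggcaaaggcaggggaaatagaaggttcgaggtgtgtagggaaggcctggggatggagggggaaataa
In the farther peak, replicate 1 had footprints at 95117141-95117147 and 95117149-95117157, and both lie inside the 23 bp footprint of replicate 2 at 95117135-95117157. In the nearer peak, the footprint began at 95118696 in both replicates and was 23 bp wide in replicate 1 and 27 bp in replicate 2. A further peak, 13.1 kb upstream of Dlx3 and so outside the window, was also shared, with a signal of 1.99 in replicate 2, and its 28 bp footprint (chr11:95107023-95107050) had the same ends in both replicates.

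Dlx4 (ENSMUSG00000020871.8, chr11:95140447-95146263, minus strand), known from the placenta, had no peak in the shorter lists and no footprint. In the longer list of replicate 2 a peak of signal 0.612 covered its start, with a lowest FDR of 0.00920. Its antisense transcript Dlx4os had no promoter peak in any list.

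Promoters were also counted by themselves. In replicate 1 none of the 6 Dlx genes had a promoter peak, against 51.0% of protein-coding genes. In replicate 2 it was Dlx2 and Dlx5, against 60.0%, and 9.19% of genes had a promoter peak in replicate 2 and not in replicate 1. The other four, Dlx1, Dlx3, Dlx4 and Dlx6, had none in either shorter list, like 39.8% of genes. In the longer lists the count was 0 in replicate 1, where 58.2% of genes had one, and 4 in replicate 2, where 64.4% did, with Dlx1 and Dlx4 added.

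The authors also deposited, for each library, the positions at which the local cut rate had an FDR of at most 0.05, whether or not a peak was called there. These positions summed to 18.2 Mb in replicate 1 and 41.2 Mb in replicate 2. None of them lay in the window of Dlx1 and Dlx2 or in that of Dlx5 and Dlx6 in replicate 1. In replicate 2 there were 4219 bp in the first and 7512 bp in the second. The window of Dlx3 and Dlx4 held 592 bp in replicate 1 and 924 bp in replicate 2. A gene window without any such position was found for 23.0% of protein-coding genes in replicate 1 and 15.5% in replicate 2. Per gene window, the order in replicate 2 was 7512 bp for Dlx5, 4037 bp for Dlx2, 3054 bp for Dlx6, 694 bp for Dlx3, 428 bp for Dlx1 and 230 bp for Dlx4.

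In replicate 2 these positions took up 90.2% of the body of Dlx2 and 88.0% of that of Dlx5. They took up 3.10% of Dlx1, 0.223% of Dlx4 and none of Dlx3 or Dlx6. An unbroken run of 3.39 kb, from chr2:71543952 to chr2:71547341, joined the peaks of Dlx2, and 1 of 2.75 kb lay in Dlx5, from chr6:6878095 to chr6:6880840. In replicate 2 as a whole, 237874 such runs had a median length of 24 bp, and 41 were at least as long as the run in Dlx2 and 141 at least as long as that in Dlx5. A body taken up to at least the share of Dlx2 was found for 78 genes, and 5 of these, Dlx2 included, had no such position in the body in replicate 1.

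**Figure D3:**
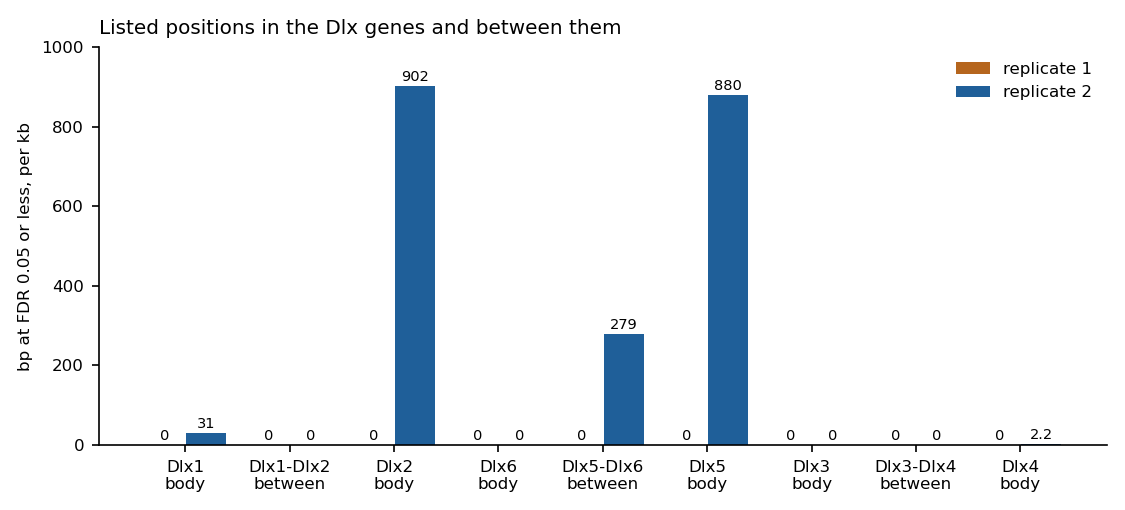
Positions with an FDR of 0.05 or less, in bp per kb (y axis, from 0), in the body of each Dlx gene and in the stretch between the genes of each pair, for replicate 1 and replicate 2. Replicate 1 is at 0 in all 9 regions, while replicate 2 reaches 902 bp per kb in Dlx2 and 880 in Dlx5, and stays at 0 in Dlx6, Dlx3 and between Dlx1 and Dlx2.

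Weak peaks were often missing from replicate 1, so the Dlx peaks were set beside all replicate 2 peaks, sorted by signal into 10 bins of about equal size. Of all replicate 2 peaks, 40.7% overlapped a peak of the shorter list of replicate 1, 65.9% a peak of the longer list, and 70.7% a position with an FDR of at most 0.05. None of the 7 peaks of Dlx1 and Dlx2 did any of these. Their signals ran from 0.534 to 1.26, with a median of 0.825. In the bin that held 3 of the 7, the shares were 9.21%, 41.5% and 49.4%, and in the bin of the strongest they were 36.3%, 73.9% and 79.2%. None of the 14 peaks of Dlx5 and Dlx6 did either, with signals from 0.243 to 1.10 and a median of 0.466. Of the 14, 10 fell in the weakest bin, where the shares were 2.86%, 20.4% and 26.3%, and 3 in the next, with 5.32%, 32.4% and 40.04%. The peak nearest the Dlx5 start fell in a bin with 24.6%, 63.9% and 70.4%. Neighbouring peaks of a gene are not independent of each other, so these shares are given as a description. Both peaks of Dlx3 and Dlx4 had a partner, in bins where 36.3% and 71.4% of peaks had one in the shorter list.

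**Figure D4:**
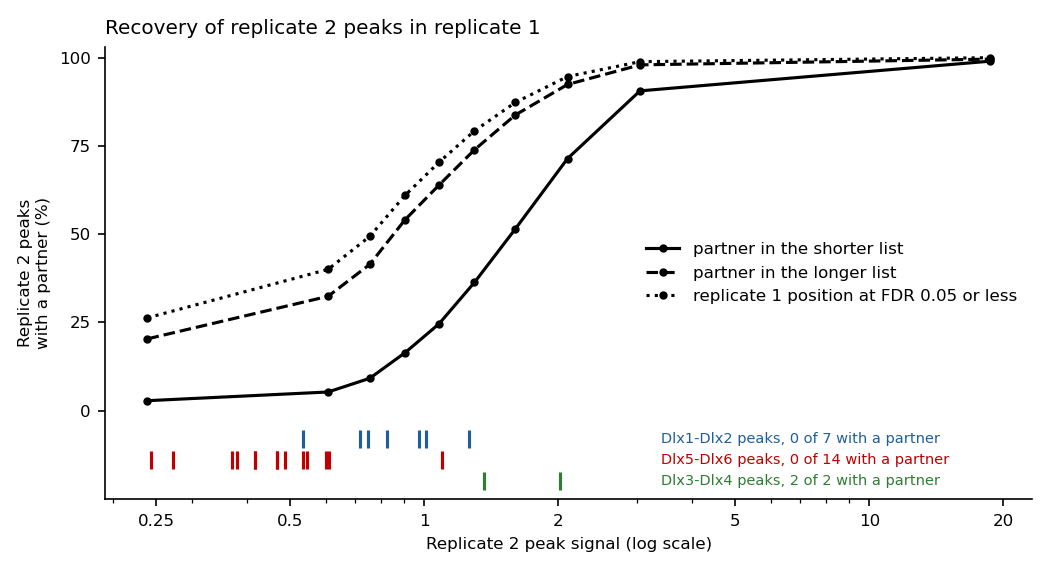
Share of replicate 2 peaks (y axis, percent) that overlap a replicate 1 peak of the shorter list, of the longer list, or a replicate 1 position with an FDR of 0.05 or less, in 10 bins of replicate 2 signal (x axis, log scale); ticks under the curves mark the Dlx peaks. The Dlx1-Dlx2 and Dlx5-Dlx6 ticks lie where 2.86% to 36.3% of peaks had a partner in the shorter list, and none of these 21 peaks had one.

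Few genes shared the pattern of Dlx5. With no peak in replicate 1 and at least 14 in replicate 2 there were 7 protein-coding genes, namely Arpp21 with 24, Rasgef1a with 23, Otx1 with 21, Trak1 with 20, Csmd2 with 15, and Dlx5 and Dmtn with 14 each. Of these, only Otx1 and Dlx5 also had no peak in the longer list of replicate 1 and no listed position there. Otx1 encodes a homeodomain factor of deep cortical layers. At the level of Dlx2 and Dlx6, with at least 7 peaks in replicate 2, there were 97 such genes, and 12 of them had no listed position in replicate 1. Besides Dlx2, Dlx5 and Dlx6 these included Otx1, Fezf2, Foxa1, Cdk5r1, Olfr90, Gpm6b, Ifih1 and Neurog2. Of the 12, 10 were shorter than 10 kb, the exceptions being Gpm6b at 150078 bp and Ifih1 at 50458 bp. Fezf2 specifies corticospinal neurons, Neurog2 is a proneural factor of cortical progenitors, and Foxa1 acts in the floor plate and in endoderm.

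Footprints followed the peaks. There were none in replicate 1 in the windows of Dlx1 and Dlx2 or of Dlx5 and Dlx6, and 3 in that of Dlx3 and Dlx4. Replicate 2 had 29, 37 and 5. Among all protein-coding genes, 72.7% had a footprint in the window in replicate 1 and 80.0% in replicate 2. By gene, replicate 2 had 37 for Dlx5, 27 for Dlx2, 12 for Dlx6, 5 for Dlx3, 2 for Dlx1 and none for Dlx4. Of the 37 at Dlx5 and Dlx6, 17 lay inside a peak of the shorter list, or 45.9%, against 68.8% of all replicate 2 footprints. Of the 20 others, 13 lay in the Dlx5 body, in the gaps between peaks of the window. At Dlx1 and Dlx2, 24 of 29 lay inside a peak.

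Wide footprints, of at least 20 bp, numbered 5 of the 71 in replicate 2, or 7.04%, against 10.7% of all footprints of that library. Of the 5 wide footprints, 1 lay upstream of Dlx2, 2 in Dlx5 and 2 upstream of Dlx3. They are compared here on the plus strand because some of them hold the CTCF core. It was searched on both strands as CCA, any 2 bases, AG, any 2 bases and GGC, and its letters are in capitals.
Upstream of Dlx2, chr2:71548019-71548041: ttgtggcGCCACCTGGTGGacag
Upstream of Dlx3, chr11:95117135-95117157: gCCACTAGATGGCgccagttccc
Upstream of Dlx3, chr11:95118696-95118722: aaaccacgaggtggtgcgctggcactg
Upstream of Dlx3, outside the window, chr11:95107023-95107050: tgggcgggcctGCCACCTGGTGGtgacc
Left of Dlx6, outside the window, chr6:6817044-6817067: tccctggctccttgccttgcacct
Upstream of Dlx5, outside the window, chr6:6915336-6915362: acagtgacatctagtggtcgtgcatac
In Dlx5, chr6:6879776-6879798: caaatcagcgagattttgtttgt
In Dlx5, chr6:6880986-6881011: gaaataccttggataaaccgcaaagt
The core was present in the footprint upstream of Dlx2, in 1 of the 2 in the window upstream of Dlx3 and in the one beyond it. The nearer one upstream of Dlx3 differed from the core at 1 position. The 2 in Dlx5 differed from it at 3 and 4 positions at best, and the 2 outside the window of Dlx5 and Dlx6 at 3 and 1. Of all replicate 2 footprints of this width, 18.1% held the core.

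Short motifs were counted in the peaks. In the 200 bp around the centre of the 23 replicate 2 peaks, TAATTA, the core bound by many homeodomain proteins, DLX included, was found in 2, against 2.20% of all replicate 2 peaks. Both were at Dlx2, 1 over its start and the other 1.29 kb upstream. The GC box GGGCGG occurred in 7, against 22.6%, with 5 of these at Dlx5 and Dlx6. TGACAG, the core of MEIS factors, occurred in 4, against 15.0%, and the E-box CAGCTG in 2, against 16.9%. The CTCF core occurred in 3, with 1 at each pair, against 10.2%. TGANTCA, the site of AP-1, and that of MEF2, searched as CTA, any 4 bases and TAG, occurred in none, against 9.70% and 2.56%. The Dlx peaks had a median GC content of 58.5%, against 54.2% for all replicate 2 peaks, and a median CpG ratio, observed over that set by base content, of 0.591 against 0.386.

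The genes that act with DLX factors were mixed. Among genes acting before them in the ventral forebrain, Gsx1 had 4 and 0 peaks in the shorter lists of replicates 1 and 2. This order was the opposite of that at Dlx2 and Dlx5. In the longer lists Gsx1 had 10 and 1 peaks, with a promoter peak in both replicates. Gsx2 had no peak in either replicate or list. Of 21 partners and downstream genes, 8 had a promoter peak in replicate 1 and 14 in replicate 2, and 7 had none in either, against 51.0%, 60.0% and 39.8% of all protein-coding genes. Their median was 1 peak in replicate 1 and 3 in replicate 2, beside 1 and 2 for all protein-coding genes.

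The downstream genes with the most shared peaks were Npas1, with 5 peaks in replicate 1 and 4 in replicate 2, Maf, with 4 and 5, and Nrp2, with 6 and 12. Npas1 and Maf are interneuron transcription factors, and Nrp2 is a semaphorin receptor that guides migrating interneurons. Erbb4, the neuregulin receptor, had 2 and 9. Gad2, which makes GABA, the LIM factors Lhx6 and Isl1, and Sp8 had no peak in the shorter list of either replicate. These were 4 of the 21 genes, beside 4775 of all 21938 protein-coding genes. In the longer list of replicate 2 each of them had 1 peak, which for Gad2 and Isl1 counted as a promoter peak. In the longer list of replicate 1 only Isl1 of these genes had a peak, again at its promoter. In the shorter lists, 10 of the 21 had no peak in replicate 1, and 6 of those 10 had some in replicate 2. Among all protein-coding genes, 32.4% had none in replicate 1, and 10.6% had none there and some in replicate 2.

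**Figure D5:**
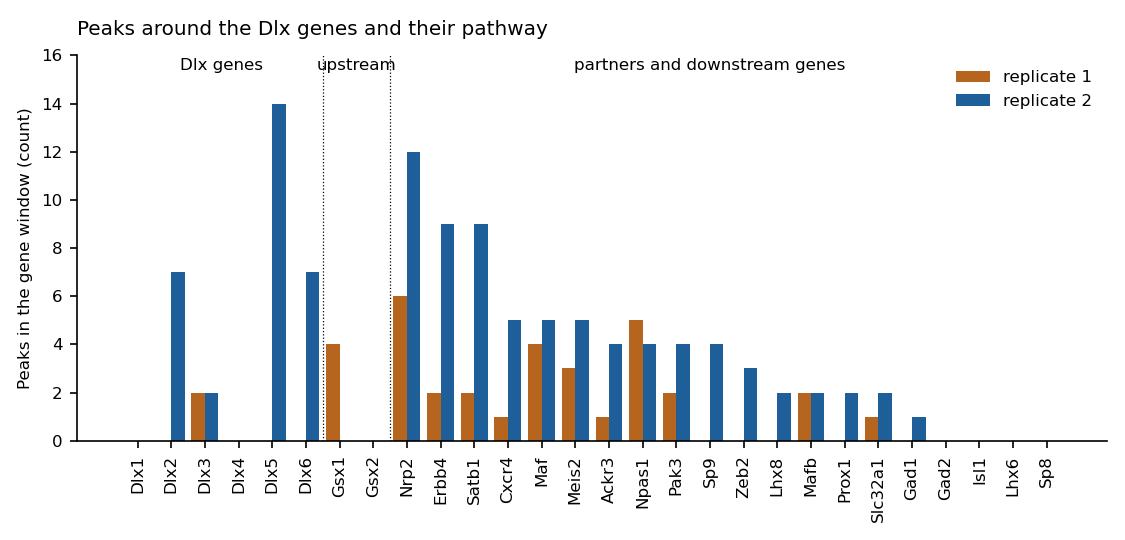
Number of peaks of the shorter lists in the gene window (y axis) for the 6 Dlx genes, the upstream genes Gsx1 and Gsx2 and 20 of the partners and downstream genes, with replicate 1 and replicate 2 as paired bars. Dlx2, Dlx5 and Dlx6 have bars in replicate 2 only, Gsx1 in replicate 1 only, and most of the downstream genes with peaks have bars in both.

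Markers of other cell types that the tissue or the dissection could hold were counted in the same way. Genes of striatal medium spiny neurons, which also use DLX factors in development, had a promoter peak in 5 of 8 in replicate 1 and 8 of 8 in replicate 2, against 51.0% and 60.0% of all genes, with medians of 2.5 and 5.5 peaks per window and summed counts of 19 and 71. Excitatory neuron genes had medians of 1 and 7.5 and summed counts of 35 and 112. Astrocyte genes had sums of 16 and 39, oligodendrocyte genes 7 and 27, and microglia genes 14 and 25. None of these markers was at 0 in replicate 2, while in replicate 1 the number at 0 was 5 of 14 excitatory, 2 of 7 astrocyte, 1 of 7 oligodendrocyte, 2 of 6 microglia and 2 of 8 striatal genes, beside 32.4% of all protein-coding genes. All of these sums were higher in replicate 2, as was the whole list of peaks, by 2.24 times. Their part in the difference at the Dlx genes was not tested.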

How the data were processed

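DNase-seq of 2 replicates of 1 group, frontal cortex, was analysed from the deposited mm10 files. Per the file listings, the authors called peaks, footprints and per-position FDR values on the filtered alignments of each library separately. The aligner, callers, thresholds and read totals were not given in the sources used here. Peak signal is the deposited read-depth normalized signal. The FDR is the authors' per-position value, and none above 0.05 was listed. The footprint score was 0.01 in every deposited row and was not used to rank. The list with fewer peaks was taken as the main list, and the longer list was an alternative.

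Gene positions came from GENCODE M21. A peak or footprint was taken in when it overlapped a window by at least 1 bp, and counted 1 time per window. Sharing between replicates meant any overlap of 2 peaks, down to 1 bp. Some rows of a list overlapped each other (5.10% and 4.04%). Motifs were exact matches on both strands. Sequences were read from the mm10 genome; RefSeq promoters of the same build were given for 2 of the 6 genes and matched it. Motif and overlap counting was tested on simulated data. Work was done in Python 3.11.15 with pandas 2.3.3, numpy 2.4.6 and matplotlib 3.10.9.

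The 6 genes, the gene lists and the windows were chosen with earlier results of these data known. Named genes were the 6 members, all genes starting in a window, up to 4 list members with the most shared peaks and up to 4 with none, and genes with 0 peaks in replicate 1 and at least as many as a Dlx gene in replicate 2. Gsx1 and Gsx2 and the letters CACGTG were added after their values were seen. Some genes of the lists are not reported here by name. With 2 replicates of 1 group no test was made; values are given per replicate. Alternatives were other windows, overlaps, promoter widths, motif widths, shortened lists and the longer lists.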

Additional observations from a re-analysis of the deposited data

How the results depend on the processing

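No paired analysis was possible because there was 1 group. Of 65 values recomputed under another setting, 51 stayed close to the reported value, counts within 1.5 times of it, and 14 did not. Some of the 51 could not have moved, because a setting that only narrows a count leaves a 0 at 0. The tally is therefore not a measure of how stable the results are. At Dlx3 and Dlx4 the 2 peaks of replicate 1 became 0 without the 10 kb flanks, 5 with 50 kb and 1 in the upper 50% of the list by signal. In replicate 2 the 2 peaks became 4 in the longer list, 0 without flanks and 6 with 50 kb. The 7 peaks of Dlx1 and Dlx2 in replicate 2 became 0 when that list was shortened to the 29700 peaks of highest signal, and 1 in its upper 50%. The 14 peaks of Dlx5 and Dlx6 became 0 under both. The lowest signal left in the shortened list was 1.30, above that of all 21 of these peaks. The merged count over both replicates ranged from 2 without replicate 2 to 21 without replicate 1. Promoter peaks in replicate 2 rose from 2 to 4 in the longer list. Footprints at Dlx5 and Dlx6 fell from 37 to 17 when counted inside peaks only. TAATTA was found in 0 Dlx peaks within 100 bp, and in 2 within 200 bp. The absence of peaks in replicate 1 at Dlx1, Dlx2, Dlx5 and Dlx6 held in both lists at flanks of 10 kb, from which 0 kb follows. With 50 kb it held in the shorter list only. The longer list had a peak 34.3 kb to the right of Dlx1 and Dlx2. It also had one 46.3 kb to the left of Dlx5 and Dlx6. Read totals were not given, so the depth behind a count of 0 could not be bounded.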
